A study of Homo sapiens with 12 samples.

Results

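The lipid droplet coat genes described here are the perilipins PLIN1 to PLIN5, the CIDE genes CIDEA, CIDEB and CIDEC, and 2 small droplet proteins, HILPDA and G0S2. Their rows were found by gene symbol. All 10 were listed among the 19677 genes of the deposited count tables, and 6 of the 10 had enough counts to be tested. RNA was sequenced from CAOV3 cells, an established human line of high-grade serous ovarian carcinoma grown in DMEM with 10% fetal bovine serum, labelled as wild type. The 12 libraries form 4 groups of 3. The control group was labelled with the solvent DMSO and no time. The ascites group received 10% ovarian cancer ascites, abdominal fluid that builds up in patients with this cancer, and DMSO for 16 hours. The bezafibrate group received 200 uM bezafibrate, a fibrate that activates PPAR nuclear receptors, for 16 hours, and the combination group received the drug and the ascites at these doses for 16 hours. DMSO is not named for the 2 groups with the drug. The labels do not state whether replicates were separate cultures or whether the ascites came from more than 1 source, so SDs and p-values describe the spread between these libraries, which may be technical, in 1 cell line.

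A lipid droplet is a store of triglyceride and cholesteryl ester inside a single layer of phospholipid, and the proteins on that layer decide how readily lipases reach the store. Perilipins coat the surface: PLIN1 belongs to adipocytes, PLIN2 and PLIN3 are found in most cells, PLIN4 coats small, newly filling droplets, and PLIN5 is typical of oxidative tissues such as heart. CIDE proteins gather at contacts between droplets and let lipid pass from the smaller to the larger one. HILPDA and G0S2 both inhibit ATGL, the lipase encoded by PNPLA2 that takes the first fatty acid from triglyceride.

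Promoters are shown for the 3 genes that rose together in the results below, and PLIN3 is shown beside them as a perilipin with a small change. RefSeq on GRCh38.p14 gave windows of 250 bases before an annotated start for 9 of the 10 genes, 11 windows in all. The windows below read 5′ to 3′ on the gene's strand and end at the base before the start. PLIN2 lies on chromosome 9 with its window at chr9:19127493-19127742, PLIN4 at chr19:4518487-4518736, CIDEC at chr3:9880254-9880503 for the start farthest upstream, and PLIN3 at chr19:4867668-4867917, each on the minus strand. Capitals mark CACGTG, the E-box core, on either strand, and TATAA, the TATA motif, on the gene's strand.
PLIN2: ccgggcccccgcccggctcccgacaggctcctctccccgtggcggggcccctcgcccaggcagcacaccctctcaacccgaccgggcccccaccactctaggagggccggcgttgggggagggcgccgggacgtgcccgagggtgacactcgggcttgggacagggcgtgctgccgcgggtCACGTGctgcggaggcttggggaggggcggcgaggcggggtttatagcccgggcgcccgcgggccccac
PLIN4: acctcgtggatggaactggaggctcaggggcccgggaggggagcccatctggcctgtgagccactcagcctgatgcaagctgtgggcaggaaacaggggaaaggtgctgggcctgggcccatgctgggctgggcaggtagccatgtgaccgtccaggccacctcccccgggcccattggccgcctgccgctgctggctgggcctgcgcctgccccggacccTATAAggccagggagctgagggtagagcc
CIDEC: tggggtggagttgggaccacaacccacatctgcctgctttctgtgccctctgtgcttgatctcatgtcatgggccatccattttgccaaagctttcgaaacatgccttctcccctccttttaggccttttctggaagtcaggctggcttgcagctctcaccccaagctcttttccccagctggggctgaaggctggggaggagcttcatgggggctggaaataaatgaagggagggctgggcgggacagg
PLIN3: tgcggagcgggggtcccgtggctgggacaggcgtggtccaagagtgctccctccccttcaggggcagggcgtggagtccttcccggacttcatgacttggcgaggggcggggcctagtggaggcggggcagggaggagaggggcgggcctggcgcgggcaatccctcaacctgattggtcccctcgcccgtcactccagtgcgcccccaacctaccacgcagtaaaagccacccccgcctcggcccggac

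In these windows CACGTG was found for PLIN2, 69 to 64 bases before the start, and it was present in 6.34% of 35116 promoter windows of the same length. TATAA was found for PLIN4, 29 to 25 bases before the start, and in 13.6% of all windows. Among coat genes whose windows are not printed, it was also found for G0S2 (28 to 24 bases before the start). PLIN5 had it at 31 to 27 and 203 to 199 bases, and PLIN1 at 123 to 119 bases. AGGTCA, the half-site that PPAR and related nuclear receptors bind, was searched on both strands and was in none of the 11 windows of the droplet genes, against 12.1% of all windows. These matches describe the letters of short windows only. PLIN2's window was 78.0% G or C, PLIN3's 70.8%, PLIN4's 69.2% and CIDEC's 56.4%, beside a median of 58.0% over all windows.

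Library totals ranged from 11831093 to 18762759 counts, and levels are given in CPM, the count of a gene relative to the TMM-scaled total of its library. Tests used edgeR's quasi-likelihood fit to 12470 genes, with p-values adjusted over all of them by the Benjamini-Hochberg method and a call at an adjusted p under 0.05. The first principal component of all tested genes held 37.0% of the variance and separated libraries with the drug from those without it. Combination replicate 3 stood apart on the second component, which held 9.88%.

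PLIN2, PLIN4 and CIDEC rose with the drug in both settings, without and with ascites. They were the 3 of 6 tested coat genes with a change above 1 on the log2 scale. The share of all genes above 1 was not counted, and ranks are given below. Each tested coat gene had at least 22 counts in every library, so none entered the test only through a group where it was high. In bezafibrate against control, 3 of the 6 tested coat genes were called, all higher, where 17.6% of all tested genes were called and 10.1% were called higher. With ascites present, the combination against ascites, 4 of 6 were called, all higher, where 17.8% of all genes were called and 10.5% were called higher. The fourth was PLIN3, with a small change described below. The median log2 fold change of the 6 tested genes was 0.84 without ascites and 0.93 with it, and that of all genes was -0.00 in both. The plot of levels by library shows the 3 genes apart from the rest.

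**Figure D1:**
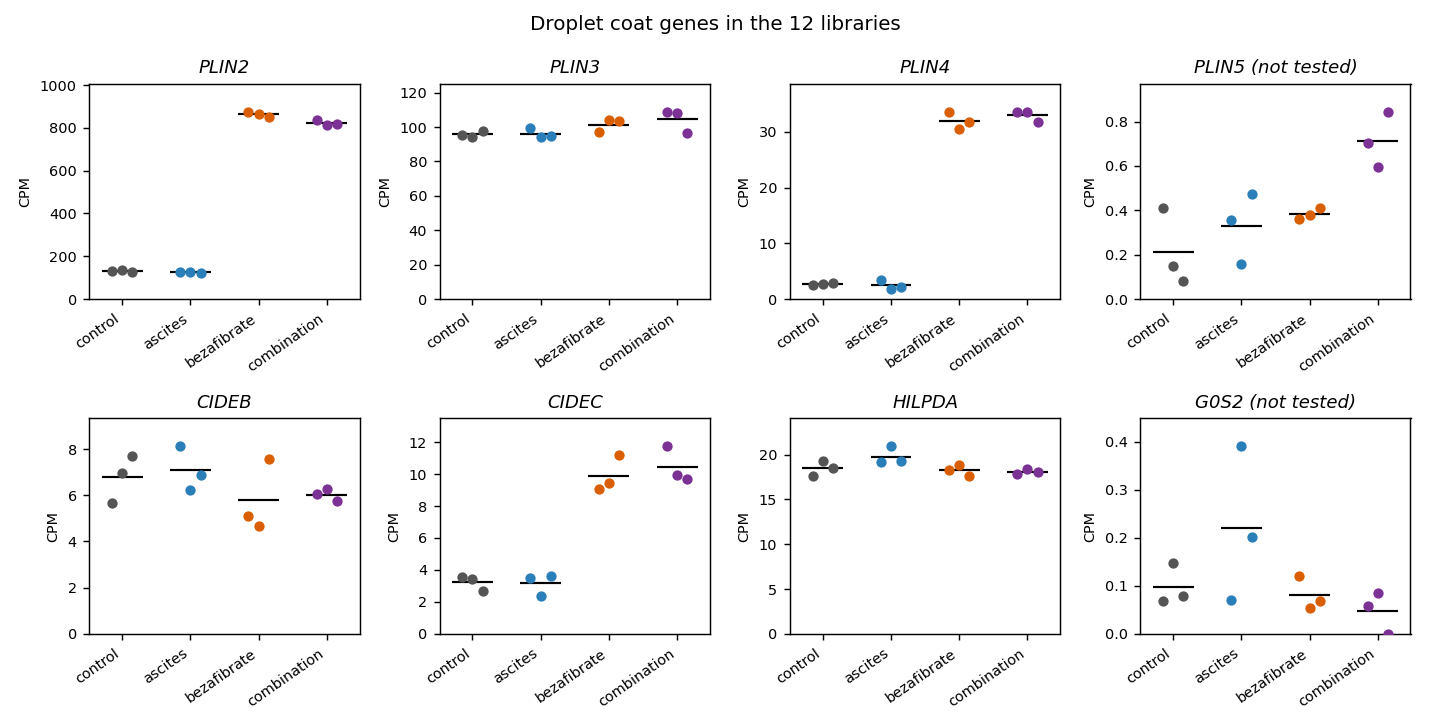
Levels in CPM (linear axis from 0, different for each gene) of 8 coat genes in the 12 libraries. Each point is 1 library and each line a group mean of 3. PLIN2, PLIN4 and CIDEC are high in all 6 libraries with bezafibrate. PLIN5 and G0S2 had too few counts to test, and PLIN1 and CIDEA are not drawn.

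PLIN2, also called adipophilin, is the perilipin of droplets in most cell types. Its levels in the control libraries were 130.4, 133.4 and 128.3 CPM, and in the bezafibrate libraries 875.8, 865.5 and 852.7 CPM. With ascites they were 126.1, 126.6 and 122.8 CPM, and in the combination 838.5, 812.4 and 819.4 CPM. All 6 libraries with the drug were far above all 6 without it. Splits of this kind were not counted over all genes, here or for PLIN4 and CIDEC below. The log2 fold change was 2.73 (SE 0.0307, 6.61-fold, edgeR adjusted p = 9.94e-40) without ascites and 2.72 (SE 0.0309, 6.58-fold, edgeR adjusted p = 1.40e-39) with it. Ranked from the highest log2 fold change, PLIN2 was number 13 of 12470 genes without ascites and number 17 with it. In bulk RNA, more RNA in each cell and more cells with the transcript cannot be told apart.

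PLIN4, a long perilipin built of many near-identical repeats, had the largest rise among the coat genes. Its control libraries held 2.52, 2.64 and 2.93 CPM and its bezafibrate libraries 33.5, 30.5 and 31.8 CPM. The ascites libraries held 3.49, 1.72 and 2.22 CPM and the combination libraries 33.6, 33.6 and 31.8 CPM. The gene went from 214 counts in the 6 libraries without the drug to 2932 in the 6 with it, and no library of one kind overlapped the other. The log2 fold change was 3.56 (SE 0.120, 11.8-fold, edgeR adjusted p = 8.50e-24) without ascites and 3.72 (SE 0.122, 13.2-fold, edgeR adjusted p = 4.01e-24) with it, number 8 of 12470 genes in both.

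PLIN5 lies 4044 bases from PLIN4 and binds both droplets and mitochondria. It had 71 counts in all, from 1 to 12 a library, and was not tested. Its counts were 6, 2 and 1 in control, 5, 2 and 7 in ascites, 6, 7 and 6 in bezafibrate and 12, 7 and 10 in the combination, or 23 without the drug and 48 with it. In CPM, the 3 combination libraries (0.594 to 0.844) were above the other 9 (0.0793 to 0.471). A split of this kind was not counted over all genes. Without the filter on low counts, the log2 difference of bezafibrate from control was 0.78 (SE 0.687, edgeR adjusted p = 0.579). That of the combination from ascites was 1.07 (SE 0.583, edgeR adjusted p = 0.259). For the combination and control, which differ in both drug and ascites, it was 1.66 (SE 0.636, unadjusted p = 0.00888, edgeR adjusted p = 0.0584). The drug's average log2 difference was 0.92 (SE 0.451, edgeR adjusted p = 0.138), and none of these was called at this depth. PLIN1, the adipocyte perilipin, had 17 counts in the 12 libraries, 3 in control, 6 in ascites, 4 in bezafibrate and 4 in the combination.

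CIDEC, known in mice as Fsp27, promotes the growth of large droplets. The control libraries held 3.55, 3.45 and 2.70 CPM and the bezafibrate libraries 9.04, 9.42 and 11.2 CPM. The ascites libraries held 3.49, 2.34 and 3.64 CPM and the combination libraries 11.7, 9.94 and 9.71 CPM. The lowest library with the drug was above the highest without it in both settings. The log2 fold change was 1.60 (SE 0.154, 3.02-fold, edgeR adjusted p = 1.35e-10) without ascites and 1.73 (SE 0.155, 3.31-fold, edgeR adjusted p = 2.54e-11) with it. Ranked from the highest, CIDEC was number 60 of 12470 genes without ascites and number 49 with it.

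CIDEB, the CIDE protein of liver and intestine that also serves lipoprotein assembly, was not called. Its levels were 5.66, 6.98 and 7.69 CPM in control, 5.12, 4.68 and 7.56 in bezafibrate, 8.12, 6.25 and 6.87 in ascites and 6.04, 6.28 and 5.74 in the combination. The groups with and without the drug overlapped in both settings. The log2 fold change was -0.24 (SE 0.157, 95% interval -0.56 to 0.08, edgeR adjusted p = 0.346) without ascites and -0.24 (SE 0.159, edgeR adjusted p = 0.361) with it. Bezafibrate replicate 3 decided this call: without it the change from control was -0.46 (edgeR adjusted p = 0.0469). CIDEB overlaps NOP9 by 3938 bases and LTB4R2 by 1296 bases in RefSeq, and since strandedness is not given in the sources used here its level is uncertain. CIDEA, the brown fat member, had 0 counts in every library, which allows a level of up to 0.0173 CPM over the 12 libraries (3 counts, counting error only).

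PLIN3, also called TIP47, is mostly cytosolic and moves onto nascent droplets. Its control libraries held 95.4, 94.2 and 97.6 CPM and its bezafibrate libraries 96.9, 104.1 and 103.3 CPM. The ascites libraries held 99.3, 94.0 and 94.7 CPM and the combination libraries 108.9, 108.3 and 96.7 CPM. The groups overlapped in both settings. The log2 fold change was 0.08 (SE 0.0450, edgeR adjusted p = 0.229) without ascites and 0.13 (SE 0.0457, edgeR adjusted p = 0.0498) with it. The second call was lost with DESeq2 (adjusted p = 0.130) and on leaving out ascites replicate 2 or 3 or combination replicate 1 or 2, with edgeR adjusted p from 0.158 to 0.218. Without combination replicate 3, the library that stood apart, the change was 0.18 (edgeR adjusted p = 0.00175). Averaged over both settings the change was 0.11 (SE 0.0321, edgeR adjusted p = 0.0114), or 1.08-fold, in a contrast that called 28.3% of all genes.

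HILPDA, a hypoxia-induced inhibitor of ATGL, was not called in either setting. Its levels were 17.7, 19.2 and 18.5 CPM in control, 18.3, 18.9 and 17.7 in bezafibrate, 19.2, 20.9 and 19.3 in ascites and 17.8, 18.4 and 18.1 in the combination. Control and bezafibrate overlapped, and the 3 combination libraries were all below the 3 with ascites alone. The share of all genes with such a split was not counted. The log2 fold change was -0.01 (95% interval -0.17 to 0.15, edgeR adjusted p = 0.960) without ascites and -0.13 (95% interval -0.29 to 0.03, edgeR adjusted p = 0.309) with it. G0S2, the other ATGL inhibitor, had 19 counts in all and was not tested. Of these, 4 were in control, 9 in ascites, 4 in bezafibrate and 2 in the combination, or 13 without the drug and 6 with it. Ascites replicate 2 alone held 5. In RefSeq the pseudogene EFCAB3P1 overlaps HILPDA over 2541 bases and the lncRNA HSD11B1-AS1 overlaps G0S2 over 979 bases, the whole of each gene. Neither symbol was found among the deposited genes, unlike NOP9 and LTB4R2, which overlap CIDEB. With strandedness not given, the levels of HILPDA and G0S2 are uncertain too.

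**Figure D2:**
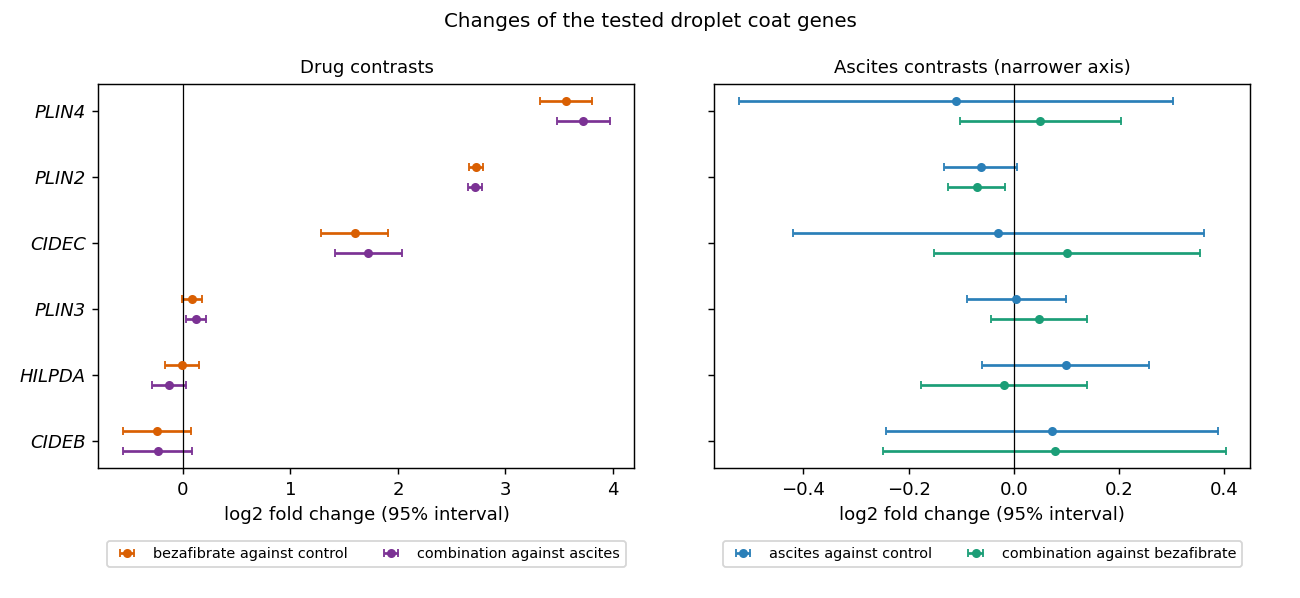
Log2 fold changes (x axis) of the 6 tested coat genes with 95% intervals from the edgeR fit, for the drug without and with ascites (left) and for ascites without and with the drug (right, on a narrower axis). PLIN4, PLIN2 and CIDEC lie above 1 in both drug contrasts, and the ascites values lie between -0.11 and 0.10.

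None of the tested coat genes was called for ascites. In ascites against control, 0 of 6 were called by edgeR, 0 had an unadjusted p under 0.05, and DESeq2 and limma voom also called 0, where edgeR called 0.0882% of all genes. In the combination against bezafibrate edgeR, DESeq2 and limma voom again called 0 of 6, and 1 had an unadjusted p under 0.05, where edgeR called 0.128% of all genes. That gene was PLIN2, for which all 3 libraries with ascites were below all 3 without it in both settings. How many of all genes split in this way was not counted, so no weight is put on the split. Its log2 difference was -0.06 (SE 0.0339, edgeR adjusted p = 0.878) without the drug and -0.07 (SE 0.0267, edgeR adjusted p = 0.820) with it. The ascites difference averaged over both settings was -0.07 (95% interval -0.11 to -0.02, unadjusted p = 0.00390, edgeR adjusted p = 0.335), and 0.281% of all genes were called in that contrast.

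The test of whether the drug's change differed with ascites called 0 of the 6 genes with edgeR, DESeq2 or limma voom, 0 at an unadjusted p under 0.05, and 0% of all genes. For PLIN2 the difference between the changes was -0.01 on the log2 scale (95% interval -0.09 to 0.08). It was 0.16 for PLIN4 (95% interval -0.28 to 0.60) and 0.13 for CIDEC (95% interval -0.34 to 0.60). The intervals of PLIN4 and CIDEC reach up to 0.60. The combination against control, where 18.2% of genes were called and 10.3% higher, gave 2.66 for PLIN2 (SE 0.0308), 3.61 for PLIN4 (SE 0.121) and 1.70 for CIDEC (SE 0.156), each called, and called PLIN3 at 0.13 (SE 0.0459, edgeR adjusted p = 0.0406). That PLIN3 call was lost on leaving out any 1 control library or combination replicate 1 or 2, with edgeR adjusted p from 0.0595 to 0.193. It was also lost with DESeq2 (adjusted p = 0.1002), with only the 2 groups compared (edgeR adjusted p = 0.0900), and with upper-quartile (0.0863) or total-count scaling (0.0645).

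Levels of different genes are compared per kilobase of transcript, taken from the longest principal transcript in GENCODE v29. In control PLIN2 had 66.3 ± 1.30 CPM per kilobase (SD, n = 3) and PLIN3 41.0 ± 0.750. HILPDA had 13.7 ± 0.589, CIDEB 2.81 ± 0.429, CIDEC 2.53 ± 0.364 and PLIN4 0.425 ± 0.0333. CIDEB and CIDEC, neighbours in this order, differed by less than their SDs, and the ranges of the other neighbours did not overlap. In bezafibrate PLIN2 stood at 438.5 ± 5.86 and PLIN3 at 43.5 ± 1.70. CIDEC at 7.74 ± 0.902 and PLIN4 at 5.03 ± 0.238 were then both above CIDEB at 2.40 ± 0.643, with no overlap of the libraries. Among the 12426 genes with a length, PLIN2 went from number 1090 in level in control to number 124 in bezafibrate, and PLIN4 from number 11706 to number 8258.

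The make-up of the perilipin transcripts followed from these levels. PLIN2 was 61.4% ± 0.902 (SD, n = 3) of the summed perilipin CPM per kilobase in control and 60.3% ± 0.813 in ascites. It was 90.0% ± 0.380 in bezafibrate and 89.2% ± 0.568 in the combination. PLIN3 went from 38.1% ± 0.867 in control to 8.93% ± 0.409 in bezafibrate while its own level per kilobase lay between 40.3 and 46.7 in all 12 libraries. PLIN4 was 0.394% ± 0.0317 in control and 1.03% ± 0.0460 in bezafibrate. The sum of the 5 perilipins was 107.9 ± 0.556 CPM per kilobase in control, 105.2 ± 1.91 in ascites, 487.2 ± 4.72 in bezafibrate and 467.9 ± 8.35 in the combination.

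**Figure D3:**
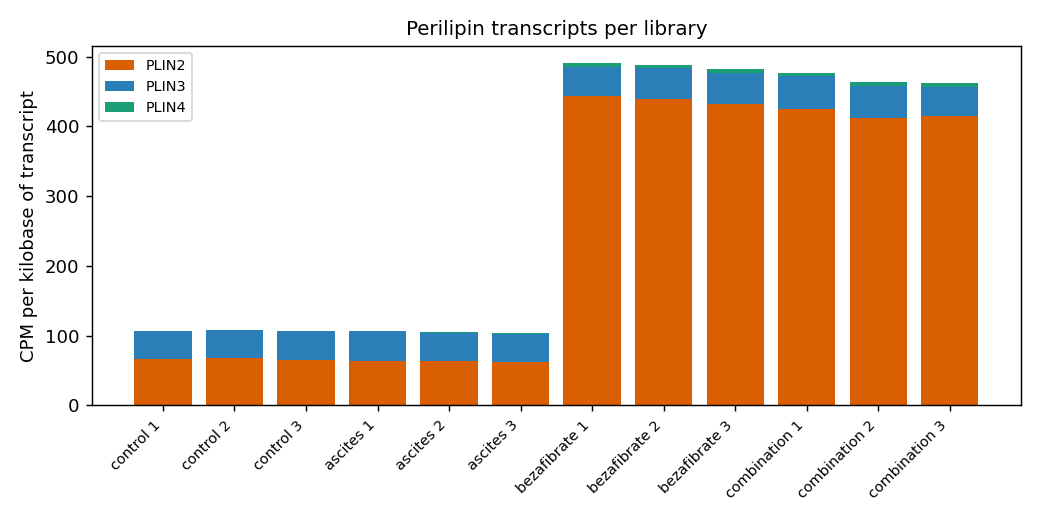
Summed level of PLIN2, PLIN3 and PLIN4 in CPM per kilobase of transcript (y axis, linear from 0) in each of the 12 libraries, stacked by gene. The 6 libraries with bezafibrate reach 462.3 to 491.1 for the 5 perilipins, mostly PLIN2, and the PLIN3 part is of like height in all. PLIN1 and PLIN5, under 0.2% of the sum in every library, are not drawn.

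Of 8 tested genes of lipolysis, by which droplets are emptied, 3 rose and 2 fell with bezafibrate alone (median log2 fold change 0.14), and 4 rose and 4 were not called with ascites present. ABHD6, a monoacylglycerol lipase, rose by 0.42 (SE 0.0993), LIPE, the hormone-sensitive lipase, by 0.40 (SE 0.0791) and MGLL, another monoacylglycerol lipase, by 0.35 (SE 0.0362). LIPA, the lysosomal acid lipase, changed by -0.18 (SE 0.0542, edgeR adjusted p = 0.0187). FAF2, a droplet-associated adaptor that inhibits ATGL, changed by -0.11 (SE 0.0382, edgeR adjusted p = 0.0467, close to the threshold). With ascites present neither was called: LIPA differed by -0.12 (edgeR adjusted p = 0.141) and FAF2 by -0.03 (edgeR adjusted p = 0.707). PNPLA2 itself was 38.4 ± 2.32 CPM in control and 40.2 ± 1.54 in bezafibrate, a log2 difference of 0.06 (SE 0.0606, edgeR adjusted p = 0.567). ABHD5, the coactivator of ATGL, differed by 0.21 (SE 0.107, edgeR adjusted p = 0.191), and by 0.33 (SE 0.107, edgeR adjusted p = 0.0243) with ascites.

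Of the 11 tested genes of triglyceride and sterol ester synthesis and droplet assembly, 5 rose and 6 were not called with bezafibrate (median 0.15), and 6 rose with ascites present. AGPAT2, which makes phosphatidic acid, went from 94.4 ± 7.54 to 164.3 ± 8.58 CPM, a log2 change of 0.80 (SE 0.0504). ACSL3, an acyl-CoA synthetase of growing droplets, rose by 0.42 (SE 0.0381), SOAT1, which makes cholesteryl ester, by 0.35 (SE 0.0453) and GPAT3, a glycerol phosphate acyltransferase, by 0.34 (SE 0.0397). Of 15 tested genes for other proteins of the droplet surface, 5 rose and 1 fell (median 0.08). The rises went up to 0.27 (NSDHL, a sterol enzyme, SE 0.0591), with SQLE, the squalene epoxidase, at 0.24, and HSD17B11 and METTL7A both at 0.17. The gene that fell was CAV1, caveolin-1, at -0.27 (SE 0.0298). None of the called genes in these 3 lists changed by as much as CIDEC.

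The other known PPAR targets listed here all rose where they could be tested. Of 18 on the list 14 were tested, the others having too few counts, and 14 rose, both without ascites (median 1.18) and with it (median 1.44). Of all tested genes, 10.1% were called higher without ascites and 10.5% with it. The list was chosen with earlier results of these data known, so its count is a description and no independent test. PDK4, a kinase that shuts off pyruvate oxidation, went from 8.26 ± 0.353 to 138.8 ± 1.89 CPM, a log2 change of 4.07 (SE 0.0680). FABP4, a fatty acid carrier, rose by 3.69 (SE 0.0389), and ANGPTL4, a lipoprotein lipase inhibitor, by 3.60 (SE 0.0504). PLIN4 at 3.56, PLIN2 at 2.73 and CIDEC at 1.60 were above the list's median and below PDK4.

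Among 10 tested regulators of droplet genes, 3 rose, 1 fell and 6 were not called with bezafibrate. NR1H3, which encodes the oxysterol receptor LXR alpha, rose by 1.10 (SE 0.0996) and EPAS1, which encodes HIF-2 alpha, by 0.67 (SE 0.0311). Of the 3 PPAR receptor genes, PPARD went from 9.84 ± 0.790 to 15.2 ± 0.963 CPM (log2 change 0.62, SE 0.102, edgeR adjusted p = 1.02e-05). PPARG went from 89.8 ± 1.70 to 68.8 ± 4.57 CPM (log2 change -0.39, SE 0.0459, edgeR adjusted p = 1.97e-08). PPARA was 4.82 ± 0.508 CPM in control and 5.08 ± 0.649 in bezafibrate (edgeR adjusted p = 0.777). Of 11 tested hypoxia targets, the class HILPDA belongs to, 4 rose and 7 were not called (median 0.14): NDRG1 by 0.49 (SE 0.0870), PDK1 by 0.38 (SE 0.0612), SLC2A1 by 0.37 (SE 0.0416) and VEGFA by 0.36 (SE 0.0657). In ascites against control, edgeR, DESeq2 and limma voom called 0 of the 69 tested genes of these 6 lists, and 8 had an unadjusted p under 0.05 in edgeR.

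**Figure D4:**
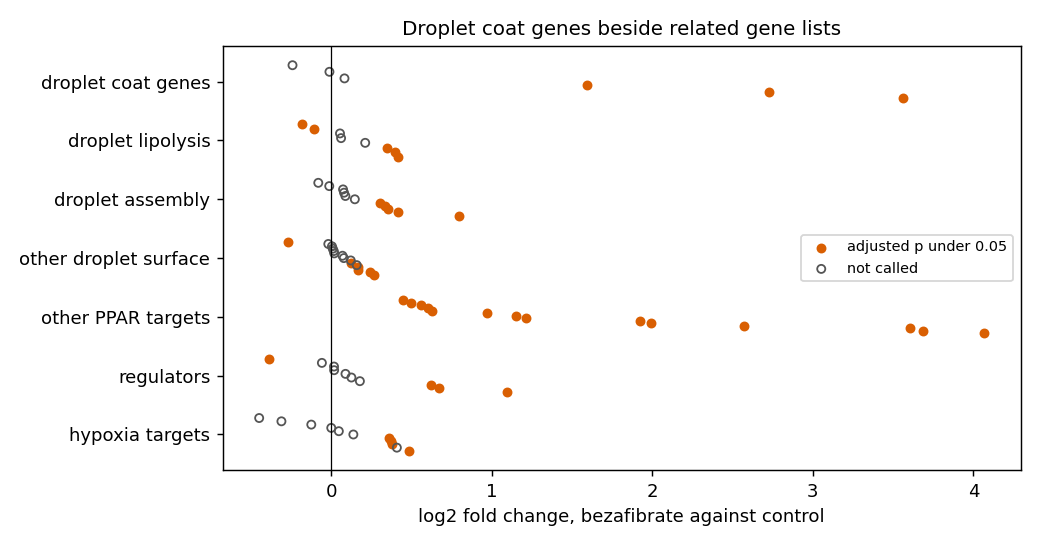
Log2 fold change in bezafibrate against control (x axis) of every tested coat gene and of the tested genes of 6 related lists (rows). Each point is 1 gene, filled where edgeR's adjusted p was under 0.05. PLIN4, PLIN2 and CIDEC, the 3 filled points of the top row, lie beyond every gene of the lipolysis, assembly and other surface lists and within the range of the other PPAR targets.

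The genes most like each coat gene across the 12 libraries were found by the root mean square difference of log2 CPM, each gene centred on its own mean, among 11925 genes. For PLIN2 they included VLDLR, a lipoprotein receptor, at 0.145 and OAS1, an antiviral enzyme, at 0.185. For PLIN4 they were FABP4 at 0.239, ANGPTL4 at 0.248 and PDK4 at 0.306. For CIDEC they were FA2H at 0.176, KLF11 at 0.195 and IHH at 0.201. The genes most like PLIN3 (STX16, AP2A1 and RUNX1, 0.0331 to 0.0356) and HILPDA (HRAS, MPZL1 and MRPL57, 0.0345 to 0.0409) were likewise nearly flat, and those most like CIDEB were TRAF5, ZNF84 and KIAA0895L (0.127 to 0.138).

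In the genome (RefSeq, GRCh38.p14), PLIN2 spans chr9:19108388-19127492, PLIN4 chr19:4502192-4518486, PLIN5 chr19:4522531-4535224, PLIN3 chr19:4838341-4867667 and CIDEC chr3:9866710-9880253. Of the protein-coding neighbours of the 3 risen genes, DENND4C, 103020 bases from PLIN2, rose from 52.1 to 83.0 CPM on average (log2 change 0.67, SE 0.0538, edgeR adjusted p = 1.04e-12). HAUS6, 5483 bases away on the other side of PLIN2, was not called (0.08, edgeR adjusted p = 0.254). The tested neighbours of PLIN4 and CIDEC were not called either: HDGFL2, which overlaps PLIN4 by 16 bases, differed by 0.01, UBXN6 by 0.03, RPUSD3 by 0.04 and JAGN1 by -0.03.

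Markers of other cells were read because adipocytes and macrophages also express these coat genes. Of 10 adipocyte markers, 5 had 0 counts in all libraries: ADIPOQ, RETN, TNMD, ADRB3 and UCP1. The summed level of the list was 5.87 to 6.07 CPM in control, 4.98 to 6.25 in ascites, 8.38 to 10.2 in bezafibrate and 8.19 to 10.7 in the combination. Of the 2 markers with enough counts to test, AQP7, a glycerol channel, rose from 1.49 to 5.18 CPM in bezafibrate against control (log2 change 1.80, SE 0.225). CFD was not called (4.37 and 3.79 CPM, log2 difference -0.20, SE 0.176, edgeR adjusted p = 0.507). Of 9 macrophage markers 5 had 0 counts (PTPRC, TYROBP, CD163, C1QA and C1QB), and the sum, mostly CD68, was 73.8 to 77.6 CPM in control, 75.0 to 83.5 in ascites, 91.3 to 96.5 in bezafibrate and 92.9 to 100.4 in the combination. Of the 2 macrophage markers tested, 1 was called higher in bezafibrate against control and 1 in the combination against ascites. Of all tested genes, 10.1% and 10.5% were called higher in these contrasts. The 6 stromal markers, all with counts in at least 1 library, summed to 10.9 to 12.6 CPM in control, 11.3 to 12.1 in ascites, 7.60 to 8.04 in bezafibrate and 7.09 to 8.62 in the combination. Of the 3 stromal markers tested, 2 were called lower in each of these 2 contrasts (median log2 fold change -0.68 and -0.69). Of all tested genes, 17.6% and 17.8% were called in either direction. The 10 markers of serous epithelium summed to 5602 to 5703 CPM in control, 5764 to 5907 in ascites, 5753 to 6007 in bezafibrate and 6203 to 6267 in the combination. Of the 7 tested, KRT7, CDH1 and PAX8 rose with bezafibrate alone (log2 changes 0.55, 1.52 and 1.48), MECOM fell by 0.35, and KRT8, KRT18 and EPCAM were not called. In the control libraries KRT8 (3005 CPM) and EPCAM (27.6 CPM) were expressed, SOX17 had 0 counts, and PAX8 (0.378 CPM), WT1 (15 counts in all) and MUC16 (10 counts in all) were at or near 0. The part of these markers in the changes of the coat genes was not tested.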

How the data were processed

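RNA of 12 CAOV3 libraries was analysed from 1 table per library of whole-number counts per gene, as the authors deposited them, with no normalization. The submitters' processing notes name Trimmomatic 0.39, STAR 2.7.9a, RSEM 1.3.3, DESeq2 1.28.1 and GRCh38, with no role or order. Strandedness and the annotation release are not given in the sources used here. RSEM estimates may have been rounded before deposit, which cannot be read from the tables.

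Of 19677 genes, 12470 passed filterByExpr with a minimum count of 10 and a minimum total of 15 (edgeR 4.0.16). Libraries were scaled by TMM, and 1 robust quasi-likelihood model over all 12 libraries had 1 mean per group (8 residual degrees of freedom). P-values were adjusted over all genes tested and called under 0.05. SEs were obtained from the change and its F statistic. Alternatives were other filters and scalings, DESeq2 1.42.0, limma voom (3.58.1), 2-group fits, a replicate block, a threshold of 0.01 and leaving out each library; summing CIDEB with LTB4R2 was added after the data were seen. Fits were tested on simulated data. Replicates with the same number did not deviate together, so the numbers were not used to pair libraries. No pair of replicates was a duplicate (chi-square per degree of freedom 1.44 to 4.45).

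The coat genes and the lists were chosen with earlier results of these data known. From each of the 6 related lists, up to 4 called genes with the largest rise and up to 2 with the largest fall in bezafibrate against control are named, with PNPLA2, ABHD5 and the PPAR genes. For each tested coat gene, the 3 most alike genes whose mean reached 1 CPM (prior count 2) are named, and for each called one the nearest protein-coding genes and overlapping genes. Symbols were matched to RefSeq (GRCh38.p14) for positions and promoters, and 99.6% of tested genes to a GENCODE v29 transcript length; the deposited identifiers may come from another release. 1 gene that these rules name is not reported here. Protein sequences and a promoter of HILPDA were not used here.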

Additional observations from a re-analysis of the deposited data

How the results depend on the processing

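The 6 tested coat genes in 8 contrasts gave 48 results, 15 of them called, and 862 values under alternatives. Of these 835 kept their side of the threshold, 25 lost a call, 2 gained one and 0 called values changed sign, while 33 values that were not called did. PLIN2, PLIN4 and CIDEC kept every call in the 4 contrasts of libraries with the drug against libraries without it under all alternatives run. Their log2 change in bezafibrate against control ranged over the alternatives that left out 1 library from 2.71 to 2.74, from 3.52 to 3.62 and from 1.49 to 1.67. All 25 lost calls were of PLIN3: its change in the combination against ascites kept its call in 3 of 16 alternatives (edgeR, DESeq2 or voom adjusted p 0.00175 to 0.218), that against control in 5 of 16 (0.00127 to 0.193), and the average over both settings in 20 of 21, the exception being the threshold of 0.01. The calls gained were of CIDEB without bezafibrate replicate 3, -0.46 against control and -0.35 (edgeR adjusted p = 0.0137) on average. Summing CIDEB with LTB4R2, chosen after seeing the data, gave -0.31 (edgeR adjusted p = 0.183) against control. The number of coat genes called ranged from 3 to 4 over the fits that left out 1 library in each of bezafibrate against control, the combination against ascites and the combination against control, and from 4 to 5 for the average drug contrast. With the replicate block, 3 coat genes were called in the combination against ascites and 3 in the combination against control (PLIN3, 0.13 in both, edgeR adjusted p = 0.0665 and 0.0548). Deviations of libraries with the same number correlated at -0.135 to 0.0613 in 18 pairs, none over 0.1, so the block rests on a number only. DESeq2 called 1669 genes in bezafibrate against control where edgeR called 2199. Low counts limit PLIN1, PLIN5, CIDEA and G0S2, which were not tested.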
